A study of Homo sapiens with 12 samples.

Results

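The 42 genes described here build the machinery that copies DNA in S phase, or switch it on. They were taken by symbol from a list of replication and S phase genes, out of 60617 genes in the deposited count table, and all 42 were among the 20360 genes that passed a filter on low counts. The cells were NCI-H295R, an established human adrenocortical carcinoma line that makes steroid hormones, and all 4 groups, of 3 biological replicates each, were in culture for 96 h. EPZ-6438, an inhibitor of the histone methyltransferase EZH2, was given to the EZH2i group at 62 µM for the whole 96 h. The CBPi group received 26 µM PRI-724, which blocks the coactivator CBP from binding β-catenin, for 96 h. Both doses are IC50 doses per the labels. The FSK group received the vehicle DMSO for 48 h and then 10 µM forskolin, which raises cAMP, for 48 h. The baseline group received DMSO alone for 96 h. The question put to these genes was how each agent moved the transcripts of DNA replication in this 1 cell line.

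DNA replication begins with licensing. The origin recognition complex, CDC6 and CDT1 load the ring of MCM2 to MCM7 onto DNA, and geminin (GMNN) holds CDT1 in check once S phase has begun. CDC45 and the GINS complex then turn the ring into an active helicase, the primase and DNA polymerases copy the strands, and the clamp PCNA, loaded by the RFC complex, keeps the polymerases on the template. Ribonucleotide reductase, thymidylate synthase and thymidine kinase supply the nucleotides. Many of these genes are transcribed by E2F factors, which the retinoblastoma protein and its relatives restrain until cyclin-dependent kinases release them.

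Library totals were 20.6 to 31.5 megacounts. CBPi replicate 2 stood apart from the other CBPi libraries, with a chi-square against counting noise, divided by its degrees of freedom, of 13.2 and 12.1, against 2.56 to 6.68 for the other 10 replicate pairs. The adrenocortical marker list was detected in full, with all 10 genes above 1 CPM (TMM-scaled counts per megacount) in every group. Its summed level was 1870 to 1910 CPM in EZH2i, 1630 to 1830 CPM in CBPi, 9290 to 9500 CPM in FSK and 3930 to 4120 CPM in baseline libraries. Summed levels of the 6 leukocyte markers were 1.47 to 3.12 CPM and those of the 5 endothelial markers 0.348 to 3.74 CPM. The 5 adrenal medulla (chromaffin) markers summed to 58.4 to 65.7 CPM in EZH2i, 97.8 to 101 CPM in CBPi, 23.3 to 25 CPM in FSK and 50.4 to 53.4 CPM in baseline libraries. TH, DBH and PNMT, the enzymes among them, were under 1 CPM, and the granule proteins CHGB and CHGA carried the sum, with log2 fold changes of 0.27 and -0.07 with EZH2i (CHGA did not pass), 0.96 and 0.62 with CBPi, and -1.33 and 0.39 with FSK. The 6 fibroblast markers summed to 27.1 to 30.1 CPM in EZH2i, 13 to 17.4 CPM in CBPi, 16.3 to 17 CPM in FSK and 33.6 to 35.6 CPM in baseline libraries. Of the 5 tested, 3 fell with EZH2i and 4 with CBPi, while with FSK 3 fell and 2 rose (adjusted p under 0.05). DCN and LUM had means under 1 CPM in baseline libraries but not in FSK libraries. Mitochondrially encoded genes took 3.76% ± 0.58 of counts in EZH2i, 4.11% ± 0.63 in CBPi, 2.94% ± 0.29 in FSK and 2.74% ± 0.43 in baseline libraries (SD, n = 3). The part of these marker and mitochondrial differences in the results was not tested. In these bulk libraries, fewer cells in S phase and less RNA of a gene per cell cannot be told apart.

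Promoter sequences were available for 36 of the 42 genes, as windows of 300 bases from 250 before to 50 after a RefSeq transcription start (GRCh38.p14). An E2F word (TTTCCCGC, TTTGGCGC, TTTCGCGC or TTTGCCGC, read on either strand, overlapping matches included) was found for 22 of these 36 genes, 61.1%, against 4% of all 27305 genes in the table. Counted by window, it was 22 of 47, 46.8%, against 3.3% of 35116. The CCAAT word, read by the factor NF-Y, was found for 22 of the 36 genes (61.1%), against 39.7% of all genes. The CHR words TTTGAA and TTCGAA, which in many mitotic genes bind a repressor complex, were found for 2 of the 36, MCM6 and RRM1 (5.6%), against 19.5% of all genes. A match describes letters in the window and not a bound site. MCM6 held the most E2F words of a single gene, with 4 matches.

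The windows of the 3 genes that fell furthest with CBPi are shown, of which 2 hold CCAAT words without an E2F word of these spellings. Each gene had 2 windows, and the window with more words was chosen after the search. Capitals mark the words, with ATTGG standing for CCAAT on the other strand.
RRM2, chr2:10122489-10122788, plus strand: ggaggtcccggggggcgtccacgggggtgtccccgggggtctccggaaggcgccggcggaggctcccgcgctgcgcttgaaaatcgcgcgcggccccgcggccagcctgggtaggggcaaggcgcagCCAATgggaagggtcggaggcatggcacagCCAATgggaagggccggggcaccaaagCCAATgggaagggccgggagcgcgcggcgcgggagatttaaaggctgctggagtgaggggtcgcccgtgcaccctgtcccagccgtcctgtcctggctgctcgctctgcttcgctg
TK1, chr17:78187003-78187302, minus strand: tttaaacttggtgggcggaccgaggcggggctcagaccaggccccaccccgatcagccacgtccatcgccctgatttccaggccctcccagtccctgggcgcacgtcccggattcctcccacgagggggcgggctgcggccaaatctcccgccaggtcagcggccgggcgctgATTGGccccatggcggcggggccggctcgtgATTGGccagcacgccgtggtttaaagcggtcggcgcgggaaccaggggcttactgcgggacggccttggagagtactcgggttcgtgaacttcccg
GMNN, chr6:24775163-24775462, plus strand: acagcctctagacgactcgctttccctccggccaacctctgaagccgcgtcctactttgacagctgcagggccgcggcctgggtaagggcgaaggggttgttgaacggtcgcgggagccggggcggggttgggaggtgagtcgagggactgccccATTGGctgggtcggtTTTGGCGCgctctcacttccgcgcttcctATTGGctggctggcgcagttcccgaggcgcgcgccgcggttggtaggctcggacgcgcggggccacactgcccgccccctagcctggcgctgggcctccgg
RRM2 has 3 CCAAT words, which begin at positions -123, -93 and -66 from the start. TK1 has 2, at positions -77 and -46. GMNN has 2, at -95 and -51, with the E2F word TTTGGCGC between them at -80.

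At baseline the 42 genes together took 0.48% of counts. Levels of different genes are compared here as CPM per kilobase of the deposited gene length. PCNA, the sliding clamp, was highest, at 204 ± 6.3 CPM per kb (SD, n = 3). Thymidylate synthase (TYMS), the flap nuclease FEN1, MCM7 and MCM3 followed, at 86.2 ± 1.8, 83.1 ± 2.4, 82.3 ± 4.3 and 81.6 ± 1.3 CPM per kb, where TYMS, FEN1 and MCM7 overlapped in the ranges of their libraries, as did FEN1, MCM7 and MCM3. The highest genes of the other roles were the catalytic polymerase delta subunit POLD1 (47.4 ± 1.2 CPM per kb), cyclin E1 (36.9 ± 0.54), the helicase factor CDC45 (33.1 ± 0.65) and the checkpoint mediator CLSPN (7.18 ± 0.2). The lowest were POLA1, at 5.59 ± 0.36, and POLE2, the second subunit of polymerase epsilon, at 3.55 ± 0.14 CPM per kb.

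Some of these levels include reads that may belong elsewhere. TYMS shares 39.1% of its exonic bases with ENOSF1 on the opposite strand, CCNE2 37% with INTS8 and MCM2 22.7% with an antisense gene (GENCODE release 29). On the same strand, POLA2 shares 35.1% and RRM2 20.2% with an annotated protein-coding gene. TIPIN shares 21% with RPL9P25, a processed pseudogene on the same strand, and its deposited counts were fractional in 12 of 12 libraries. Fractional counts did not follow these overlaps. ORC6, with 0 exonic bases shared, was also fractional in 12 of 12 libraries, and MCM2 and CCNE2 were fractional in 0 of 12. PCNA and RPA2 each have 3 annotated pseudogenes by name, as does RRM2, and the deposited counts do not say how reads were divided among such copies. Deposited lengths differ from GENCODE release 29 for some genes. RRM2 has 5323 exonic bases in that release and 9155 as deposited, CLSPN 5411 and 9591, and CDT1 3336 and 2760. The shares above may therefore not hold for the annotation behind the counts, and levels per kb depend on the length used.

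The transcripts of replication were lower as a group with both inhibitors and less so with forskolin. Summed over the 42 genes, levels were 3655, 3719 and 3656 CPM in EZH2i, 3280, 3233 and 3252 CPM in CBPi, 4450, 4321 and 4451 CPM in FSK, and 4704, 4772 and 4797 CPM in baseline libraries. The groups did not overlap. By the quasi-likelihood test of edgeR, with p-values adjusted over all genes tested (Benjamini-Hochberg), 35 of the 42 genes fell with EZH2i and 2 rose, where 28.3% of all genes fell and 29.5% rose. With CBPi 37 fell and 0 rose, where 29.0% of all genes fell and 29.8% rose. At an unadjusted p under 0.05 the count of rises with CBPi was also 0, as it was by DESeq2 and limma voom. With FSK 16 fell and 7 rose, where 25.1% of all genes fell and 25.5% rose. The median log2 fold change of the 42 genes was -0.313 with EZH2i, -0.507 with CBPi and -0.0925 with FSK, beside medians over all genes of 0.024, 0.0149 and 0.0146. The 3 comparisons share the baseline libraries. Forskolin was given for 48 h and each inhibitor for 96 h at an IC50 dose, so agent, dose and time cannot be told apart when they are ranked. Libraries of 2 groups that did not overlap were common among all 20360 genes. With EZH2i 6884 genes lay wholly above baseline and 6535 wholly below, with CBPi 6401 and 6271, and with FSK 5886 and 5843. Among the 42 genes these numbers were 2 and 35 with EZH2i, 0 and 37 with CBPi, and 7 and 21 with FSK.

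**Figure D1:**
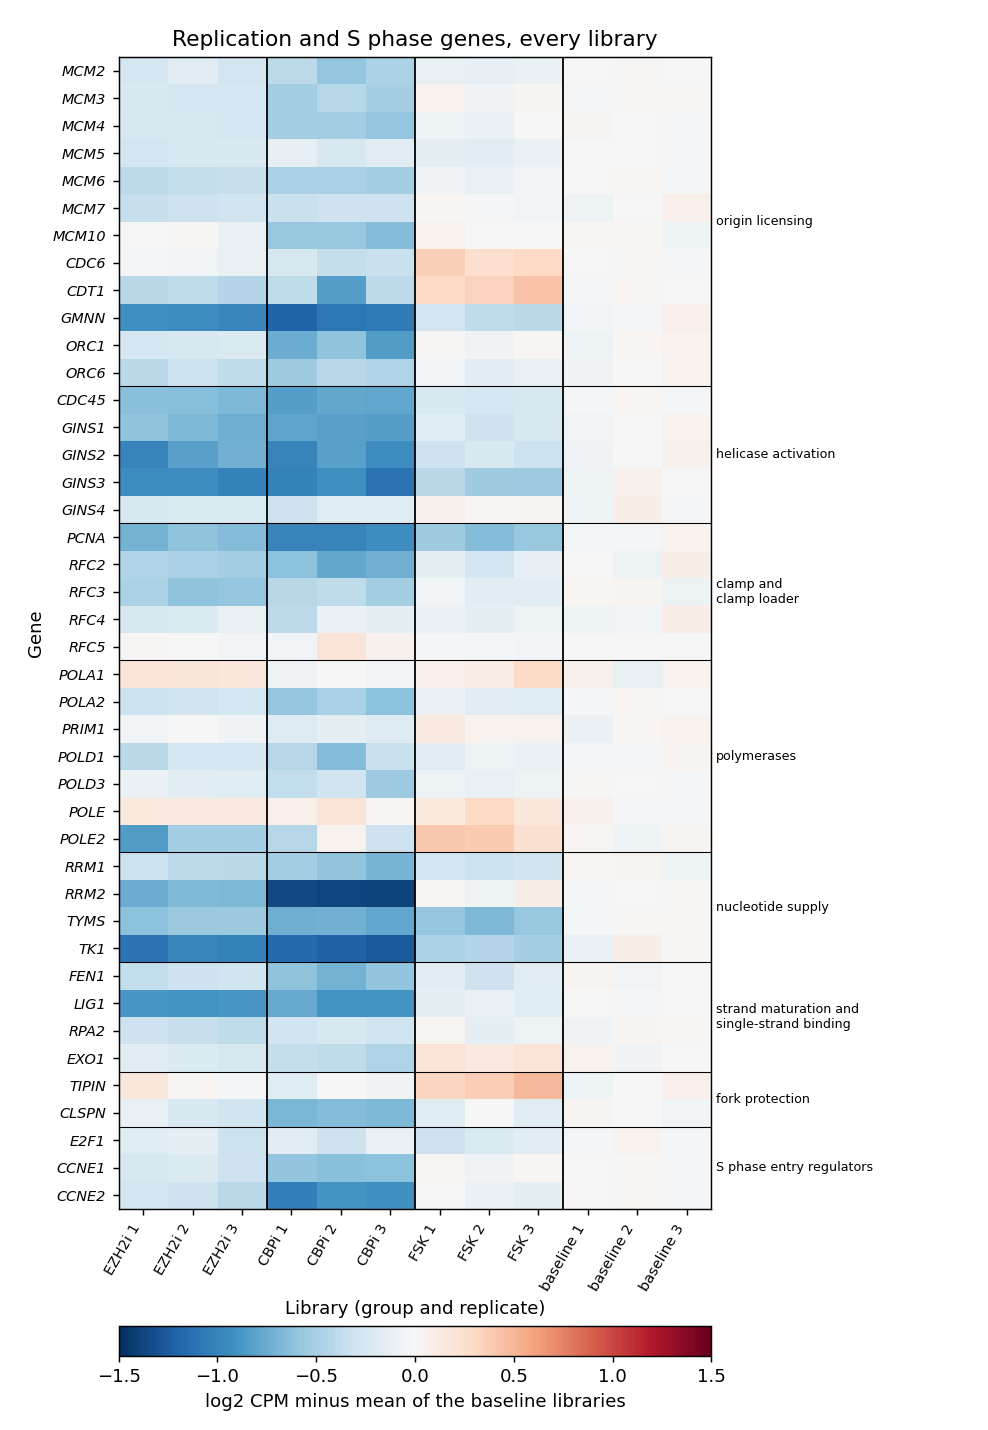
Level of each of the 42 genes (rows, grouped by role) in each of the 12 libraries (columns), as log2 CPM minus the mean of the 3 baseline libraries, blue lower and red higher. The CBPi columns are the bluest, with RRM2 darkest, and CDC6, CDT1, POLE2 and TIPIN are red in the FSK columns.

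With EZH2i the falls were widest in nucleotide supply and helicase activation, and small in the MCM ring. Of 4 nucleotide supply genes 4 fell (median log2 fold change -0.633), of 5 helicase activation genes 5 fell (-0.667), and of 12 licensing genes 10 fell (-0.248). The licensing list includes geminin, which restrains CDT1, and MCM10, which helps the helicase start. Thymidine kinase 1 (TK1, chr17:78174075-78187233, minus strand, GRCh38), which salvages thymidine, had 46.4, 50.4 and 49.4 CPM in the EZH2i libraries, against 93.3, 106 and 101 CPM in the baseline libraries. The groups were far apart, and TK1 was 2.06-fold lower with EZH2i (log2 fold change -1.04 ± 0.05 SE, edgeR adjusted p = 1.47e-12). GINS3 (chr16:58295080-58406144, plus strand), a subunit of the 4-part GINS complex, had 31.3, 31.6 and 30.1 CPM in the EZH2i libraries, against 57.5, 63.4 and 61.0 CPM in the baseline libraries (log2 fold change -0.97 ± 0.06 SE, edgeR adjusted p = 1.79e-11). All 3 treated libraries lay well under the lowest baseline library.

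Geminin, the inhibitor of CDT1, had 39.2, 38.4 and 37.4 CPM in the EZH2i libraries, against 71.8, 72.3 and 78.0 CPM in the baseline libraries (log2 fold change -0.95 ± 0.05 SE, edgeR adjusted p = 7.02e-12). DNA ligase 1 (LIG1), which seals Okazaki fragments, had 70.4, 69.4 and 70.4 CPM in the EZH2i libraries, against 130.1, 128 and 129 CPM in the baseline libraries (log2 fold change -0.88 ± 0.04 SE, edgeR adjusted p = 1.75e-12). Both were lower in each EZH2i library than in any baseline library, as were GINS2 (-0.84) and RRM2, the small subunit of ribonucleotide reductase (-0.69). These 6 genes were the ones that passed a test against a 1.5-fold change, 6 of 42, where 4.79% of all genes did so downwards. MCM2 to MCM7, the 6 subunits of the ring, fell together and by little, with log2 fold changes of -0.36 to -0.23 and a summed level of 1253 ± 11.7 CPM in EZH2i and 1517 ± 18.6 CPM in baseline libraries (SD, n = 3). PCNA fell to 175, 188 and 183 CPM in the EZH2i libraries, against 281, 282 and 297 CPM in the baseline libraries. Of its loader, RFC2 (-0.49) and RFC3 (-0.55) fell, RFC4 fell by less (-0.18), and RFC5 did not pass (-0.01).

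The polymerase genes split. POLE2 (-0.61), POLD1 (-0.31), POLA2 (-0.30) and POLD3 (-0.15) fell. The catalytic subunit of polymerase alpha, POLA1, had 40.3, 40.0 and 39.6 CPM in the EZH2i libraries, against 36.9, 32.8 and 36.6 CPM in the baseline libraries (log2 fold change 0.18 ± 0.06 SE, edgeR adjusted p = 0.0165). That of polymerase epsilon, POLE, had 123, 121 and 122 CPM in the EZH2i libraries, against 116, 108 and 108 CPM in the baseline libraries (log2 fold change 0.14 ± 0.05 SE, edgeR adjusted p = 0.0236). Both rose slightly, with no overlap between the groups, a separation in this direction that 6884 of all 20360 genes showed. Without baseline replicate 2 neither rise passed, at 0.12 (adjusted p = 0.141) for POLA1 and 0.12 (adjusted p = 0.0986) for POLE. POLE was also lost without EZH2i replicate 1, 2 or 3 or baseline replicate 3 (adjusted p = 0.064, 0.0513, 0.0534 and 0.0892). POLD3 kept its call in 13 of 20 alternatives, being lost without EZH2i replicate 2 or 3 or baseline replicate 1 or 2 (0.0979, 0.106, 0.0779 and 0.0848), with upper quartile scaling (0.0675), with library size only (0.0731) and with no filter (0.0613). RFC4 was lost without EZH2i replicate 1 or 2 or baseline replicate 3 (0.0877, 0.0661 and 0.122).

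GINS1 (-0.67), CDC45 (-0.65) and TYMS (-0.57) also fell with EZH2i, as did CDT1 (-0.41), RRM1 (-0.37), ORC6 (-0.37), ORC1 (-0.24) and GINS4 (-0.22). FEN1 (-0.33), the single-strand binding subunit RPA2 (-0.35) and the exonuclease EXO1 (-0.20) fell. In fork protection CLSPN fell (-0.21) and TIPIN did not pass (0.06). All 3 S phase entry regulators fell, E2F1 (-0.21), CCNE1 (-0.26) and CCNE2 (-0.33), the last having 30.7, 29.8 and 28.0 CPM in the EZH2i libraries, against 37.1, 37.6 and 36.5 CPM in the baseline libraries. The 3 genes of licensing and priming that did not pass were MCM10 (-0.03), CDC6 (-0.06) and PRIM1 (-0.03).

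**Figure D2:**
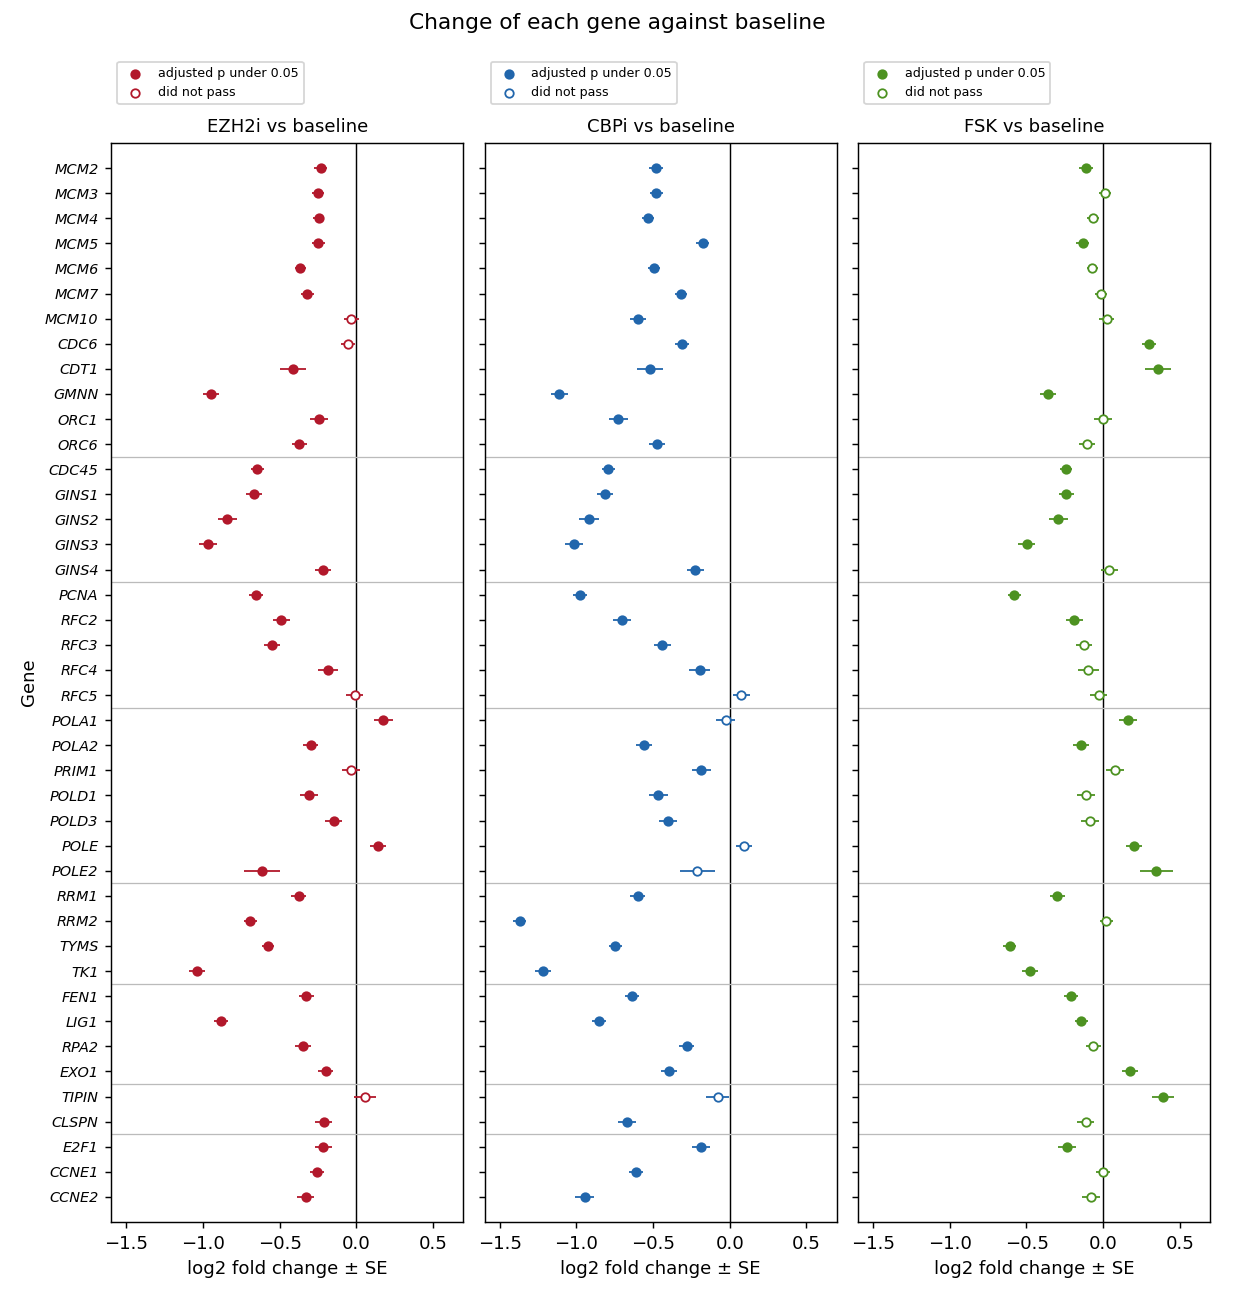
log2 fold change against baseline of each gene (rows, grouped by role, grey lines between roles), with bars of 1 SE, for EZH2i, CBPi and FSK. Filled points passed the adjusted p of 0.05 and open points did not. Nearly all points lie left of 0 with EZH2i and CBPi, and they lie on both sides with FSK.

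CBPi gave the largest fall of any of the 42 genes. RRM2 (chr2:10120698-10131419, plus strand) had 95.1, 93.5 and 93.0 CPM in the CBPi libraries, against 239, 243 and 247 CPM in the baseline libraries. It was 2.59-fold lower (log2 fold change -1.37 ± 0.04 SE, edgeR adjusted p = 1.08e-15), and its CBPi libraries lay between 93.0 and 95.1 CPM. TK1 had 44.5, 43.1 and 41.8 CPM in the CBPi libraries, against 93.3, 106 and 101 CPM in the baseline libraries (log2 fold change -1.22 ± 0.05 SE, edgeR adjusted p = 1.66e-13). The other genes of nucleotide supply fell too, TYMS (-0.75) and RRM1, the large reductase subunit (-0.60). Geminin (chr6:24774931-24786099, plus strand) was 2.16-fold lower, at 32.2, 34.9 and 35.4 CPM in the CBPi libraries, against 71.8, 72.3 and 78.0 CPM in the baseline libraries. PCNA (chr20:5114953-5126626, minus strand) had 143, 143 and 151 CPM in the CBPi libraries, against 281, 282 and 297 CPM in the baseline libraries (log2 fold change -0.98 ± 0.04 SE, edgeR adjusted p = 2.31e-13). In each of these 4 cases every CBPi library was below every baseline library.

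Of the 12 genes of the licensing list, geminin and MCM10 among them, 12 fell with CBPi (median -0.487). ORC1, an ATP-binding subunit of the origin recognition complex, had 22.8, 25.1 and 21.3 CPM in the CBPi libraries, against 36.0, 38.7 and 39.4 CPM in the baseline libraries (log2 fold change -0.73 ± 0.06 SE, edgeR adjusted p = 5.13e-09). MCM10, which helps the helicase start, also fell (-0.60), and CDC6 fell by less (-0.31). The MCM ring genes ranged from -0.54 for MCM4 to -0.18 for MCM5. CDT1 had 86.1, 63.2 and 85.6 CPM in the CBPi libraries, against 109.7, 115 and 112 CPM in the baseline libraries. Its low library is CBPi replicate 2, and it fell without that library as well.

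All 5 helicase activation genes fell (median -0.815): GINS3 (-1.02), GINS2 (-0.92), GINS1 (-0.81), CDC45 (-0.79) and, by less, GINS4 (-0.23). LIG1 fell as far as these, to 76.3, 69.3 and 69.1 CPM in the CBPi libraries, against 130.1, 128 and 129 CPM in the baseline libraries. Cyclin E2 had 18.0, 20.1 and 19.6 CPM in the CBPi libraries, against 37.1, 37.6 and 36.5 CPM in the baseline libraries (log2 fold change -0.95 ± 0.06 SE, edgeR adjusted p = 7.26e-11), and cyclin E1 fell by less (-0.61). E2F1, a transcription activator of S phase genes, fell least of the regulators (-0.18), a call lost without baseline replicate 2 (adjusted p = 0.0559). CLSPN fell (-0.67). Against 1.5-fold, 12 of the 42 genes passed, RRM2, TK1, GMNN, GINS3, PCNA, CCNE2, GINS2, LIG1, GINS1, CDC45, TYMS and ORC1, where 6.14% of all genes did so downwards.

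The polymerases and the clamp loader were mixed with CBPi. POLA2 (-0.56), POLD1 (-0.47), POLD3 (-0.40) and the primase subunit PRIM1 (-0.18) fell. POLA1 (-0.03), POLE (0.10) and POLE2 (-0.21) did not pass, nor did RFC5 (0.08) and TIPIN (-0.08). POLE2 had 7.80, 10.9 and 8.45 CPM in the CBPi libraries, against 10.6, 10.0 and 10.8 CPM in the baseline libraries, so CBPi replicate 2 lay above the highest baseline library and the other CBPi libraries below the lowest, and without it POLE2 fell, at -0.37 (adjusted p = 0.00555). RFC4 fell (-0.20) but not without CBPi replicate 1, at -0.11 (adjusted p = 0.132), or baseline replicate 3 (adjusted p = 0.0986), and PRIM1 was lost without baseline replicate 2 or 3 (0.0538 and 0.0548). POLE was called higher without CBPi replicate 3, at 0.13 (adjusted p = 0.0489).

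**Figure D3:**
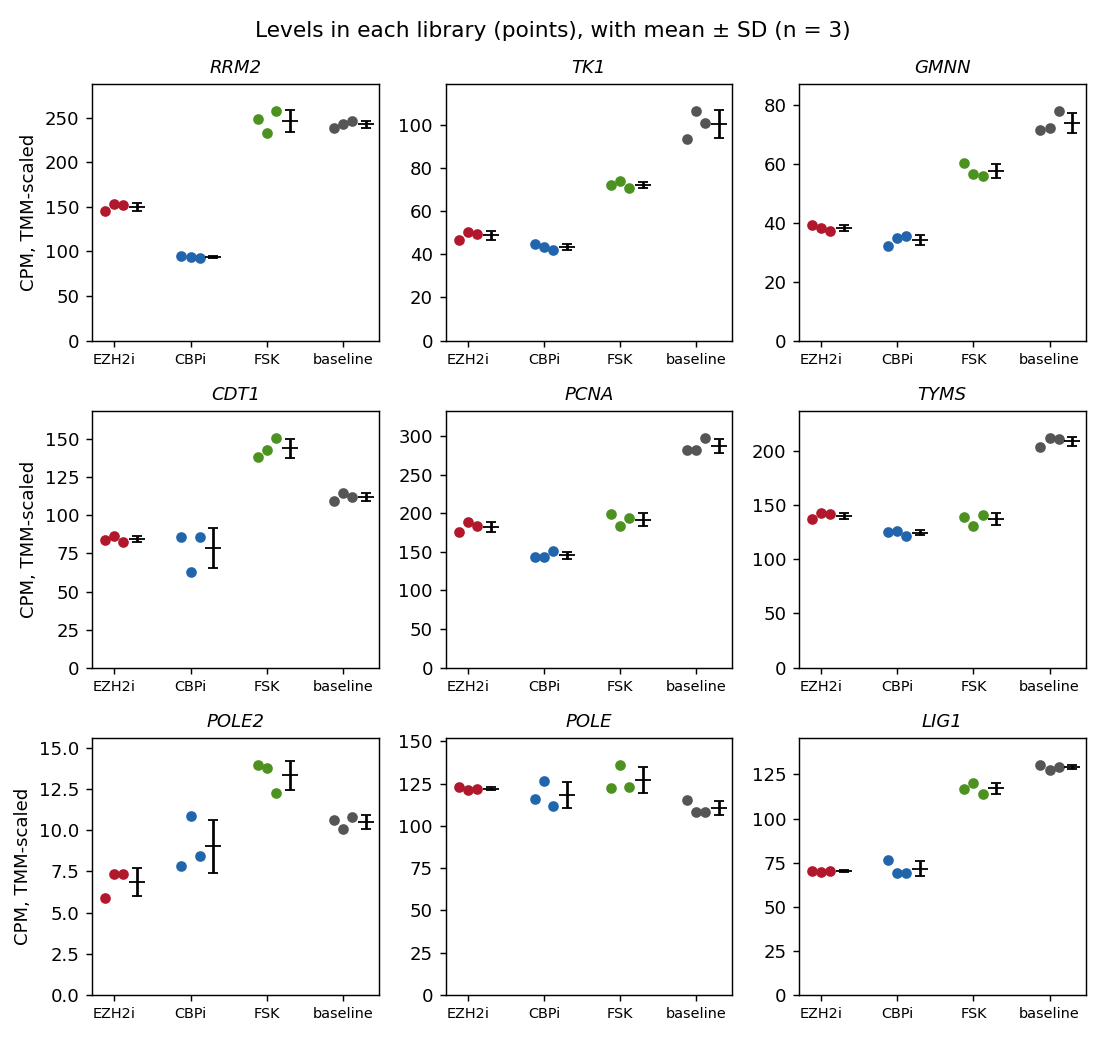
CPM of 9 genes in each library (points, replicates 1 to 3 from left to right within a group), with the mean ± SD of 3 libraries beside them, from 0 on each axis. RRM2 lies between 93.0 and 95.1 CPM in CBPi and between 239 and 247 CPM in baseline libraries, and CDT1 and POLE2 are higher in FSK than in baseline libraries.

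Forskolin split the genes. TYMS (chr18:657604-673578, plus strand), which makes dTMP, had 139, 130.4 and 141 CPM in the FSK libraries, against 204, 211 and 211 CPM in the baseline libraries (log2 fold change -0.61 ± 0.04 SE, edgeR adjusted p = 1.15e-10). PCNA had 198, 183 and 194 CPM in the FSK libraries, against 281, 282 and 297 CPM in the baseline libraries (log2 fold change -0.58 ± 0.04 SE, edgeR adjusted p = 5.96e-10). Both were well separated, and GINS3 (-0.50), TK1 (-0.48) and GMNN (-0.36) fell next furthest. CDC45 (-0.24), GINS1 (-0.24), GINS2 (-0.29), RRM1 (-0.30), FEN1 (-0.21) and E2F1 (-0.24) fell as well. RRM2, the gene that moved most with CBPi, had 248, 233 and 257 CPM in the FSK libraries, against 239, 243 and 247 CPM in the baseline libraries and did not pass (0.02). No gene of the 42 passed the test against 1.5-fold, where 6.45% of all genes did so downwards. At an unadjusted p under 0.05 the count was also 0.

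The 7 genes that rose with FSK belong to licensing, the polymerases, fork protection and strand processing. TIPIN (chr15:66336206-66386746, minus strand), which stabilises stalled forks with TIMELESS, had 22.9, 23.7 and 25.5 CPM in the FSK libraries, against 17.5, 18.1 and 19.2 CPM in the baseline libraries (log2 fold change 0.39 ± 0.07 SE, edgeR adjusted p = 0.000113). CDT1 (chr16:88803213-88809258, plus strand) had 138, 143 and 151 CPM in the FSK libraries, against 109.7, 115 and 112 CPM in the baseline libraries (log2 fold change 0.36 ± 0.08 SE, edgeR adjusted p = 0.00224). CDC6, its partner in loading MCM, had 153, 142 and 146 CPM in the FSK libraries, against 119, 121 and 118 CPM in the baseline libraries (log2 fold change 0.30 ± 0.04 SE, edgeR adjusted p = 1.12e-05). In all 3 cases every FSK library was above every baseline library. Whether reads from the pseudogene RPL9P25 add to the TIPIN counts was not tested.

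POLE2 (chr14:49643555-49688422, minus strand) had 13.9, 13.8 and 12.3 CPM in the FSK libraries, against 10.6, 10.0 and 10.8 CPM in the baseline libraries (log2 fold change 0.35 ± 0.11 SE, edgeR adjusted p = 0.0117). POLE had 123, 136 and 123 CPM in the FSK libraries, against 116, 108 and 108 CPM in the baseline libraries, and POLA1 had 37.4, 38.3 and 43.2 CPM in the FSK libraries, against 36.9, 32.8 and 36.6 CPM in the baseline libraries. EXO1 had 52.2, 49.995 and 51.8 CPM in the FSK libraries, against 47.0, 43.8 and 45.6 CPM in the baseline libraries. These 4 groups of FSK libraries lay above baseline with small gaps. POLA1 was lost without FSK replicate 3, at 0.10 (adjusted p = 0.226), or baseline replicate 2 (0.213), and POLE2 without baseline replicate 2 (adjusted p = 0.0522). POLA1 was also lost by DESeq2 (0.0885) and with no filter (0.0833). POLA1 and EXO1 were both lost with scaling by library size only (adjusted p = 0.217 and 0.0834), a scaling that gave 26 falls among the 42 genes in place of 16 and under which 39.7% of all calls with FSK were rises, against 50.5% with TMM.

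The smallest falls with FSK were in MCM5 (-0.13), MCM2 (-0.11), RFC2 (-0.19), POLA2 (-0.14) and LIG1 (-0.14), and 19 of the 42 genes did not pass. The MCM2 call (adjusted p = 0.0488) held in 9 of 20 alternatives, and was lost with no filter and without any 1 library except CBPi replicate 1 or 2 (adjusted p up to 0.123). RFC2 was lost without FSK replicate 2 (0.0641) or baseline replicate 3 (0.0555), and LIG1 without FSK replicate 3 (0.0503). POLA2 was lost without FSK replicate 2 or 3 or baseline replicate 2 (0.0665, 0.0756 and 0.0826) and with no filter (0.051). RFC3 (-0.13, adjusted p = 0.0596) and POLD1 (-0.11, adjusted p = 0.127), which did not pass, were not called in 14 and 16 of 20 alternatives and called lower in the others. The 6 MCM ring genes had log2 fold changes of -0.13 to 0.01 and a summed level of 1463 ± 31.5 CPM in FSK and 1517 ± 18.6 CPM in baseline libraries (SD, n = 3). Cyclin E1 had 92.5, 87.8 and 92.4 CPM in the FSK libraries, against 91.1, 92.1 and 89.4 CPM in the baseline libraries, and the ranges overlapped.

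Partner genes moved unequally, so their ratios within a library differed between groups. These 4 pairs were chosen after their values were seen and no test was made. CDT1 per geminin was 2.14, 2.25 and 2.22 in EZH2i, 2.67, 1.81 and 2.42 in CBPi, 2.29, 2.52 and 2.69 in FSK, and 1.53, 1.59 and 1.44 in baseline libraries. Every treated library was above every baseline library. GMNN was lower in each treated group, and CDT1 was higher with FSK. The small subunit of ribonucleotide reductase per large subunit (RRM2 per RRM1) was 1.7, 1.87 and 1.89 in EZH2i, 1.27, 1.31 and 1.4 in CBPi, 2.8, 2.72 and 2.96 in FSK, and 2.2, 2.21 and 2.4 in baseline libraries. It was below baseline with both inhibitors and above it with FSK. POLE per POLE2 was 20.9, 16.5 and 16.6 in EZH2i, 14.9, 11.7 and 13.2 in CBPi, 8.81, 9.87 and 10 in FSK, and 10.9, 10.8 and 9.99 in baseline libraries. Its EZH2i libraries were the highest. Cyclin E1 per cyclin E2 was 2.51, 2.63 and 2.61 in EZH2i, 3.35, 2.94 and 3.02 in CBPi, 2.49, 2.55 and 2.74 in FSK, and 2.46, 2.45 and 2.45 in baseline libraries.

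Set directly against each other, the 2 inhibitors differed most in RRM2, CCNE2 and MCM10. Of the 42 genes 26 were higher with EZH2i than with CBPi and 1 was lower, where 21.7% of all genes were higher and 22.2% lower. With a single library left out, 21 to 25 were higher. PRIM1, POLD1 and GINS1 kept their calls in 9, 11 and 15 of 20 alternatives. RRM2 had 145, 153 and 153 CPM in the EZH2i libraries, against 95.1, 93.5 and 93.0 CPM in the CBPi libraries (log2 fold change 0.68 ± 0.04 SE, edgeR adjusted p = 1.77e-10). CCNE2 had 30.7, 29.8 and 28.0 CPM in the EZH2i libraries, against 18.0, 20.1 and 19.6 CPM in the CBPi libraries (log2 fold change 0.61 ± 0.06 SE, edgeR adjusted p = 1.16e-07). MCM10 had 56.8, 57.3 and 52.3 CPM in the EZH2i libraries, against 38.3, 38.3 and 36.0 CPM in the CBPi libraries (log2 fold change 0.56 ± 0.05 SE, edgeR adjusted p = 3.65e-08). None of these ranges overlapped. Of all 20360 genes, 5264 lay wholly higher with EZH2i than with CBPi and 5337 wholly lower. POLE2 was the gene that was lower with EZH2i, at 5.87, 7.35 and 7.35 CPM in the EZH2i libraries, against 7.80, 10.9 and 8.45 CPM in the CBPi libraries (log2 fold change -0.40 ± 0.12 SE, edgeR adjusted p = 0.00797). It did not pass without EZH2i replicate 1, at -0.30 (adjusted p = 0.0585), or without CBPi replicate 2, at -0.25 (adjusted p = 0.0758). GINS3, GINS2, LIG1 and MCM7 did not pass, with differences of 0.05 ± 0.06, 0.08 ± 0.07, -0.03 ± 0.05 and 0.0011 ± 0.04 (log2, SE), which does not show that the 2 agents act alike on them.

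Against forskolin, 30 genes were lower with EZH2i and 0 higher, where 31.3% of all genes were lower and 30.3% higher. With scaling by library size only, 25 were lower and 1 higher. The widest gaps were in POLE2 (-0.96), CDT1 (-0.77) and LIG1 (-0.74). CDT1 had 84.0, 86.3 and 82.8 CPM in the EZH2i libraries, against 138, 143 and 151 CPM in the FSK libraries, and LIG1 had 70.4, 69.4 and 70.4 CPM in the EZH2i libraries, against 117, 120.3 and 114 CPM in the FSK libraries. TYMS and PCNA, the leading falls with forskolin, did not differ between EZH2i and FSK beyond the test's threshold (0.03 and -0.07). With CBPi 37 genes were lower than with FSK and 0 higher (in both comparisons also 0 at an unadjusted p under 0.05 and by DESeq2), where 29.5% of all genes were lower and 29.3% higher. RRM2 (-1.39), CDT1 (-0.88) and CCNE2 (-0.87) differed most. RRM2 had 95.1, 93.5 and 93.0 CPM in the CBPi libraries, against 248, 233 and 257 CPM in the FSK libraries. Exposure to forskolin was 48 h and to each inhibitor 96 h, so agent and time cannot be told apart in these comparisons.

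Related genes outside the 42 were read from lists of function. Of all genes tested, 28.3% fell and 29.5% rose with EZH2i, 29.0% and 29.8% with CBPi, and 25.1% and 25.5% with FSK. The lists are small, and none was tested against these shares. With EZH2i, 19 of 29 other replication genes fell and 2 rose (median log2 fold change -0.203), led by POLE4 (-0.85), a small subunit of polymerase epsilon, and RPA3 (-0.70), a single-strand binding subunit. Of 14 other nucleotide supply genes 10 fell and 2 rose, with the dTMP kinase DTYMK (-0.69) among the falls. Of 8 genes of chromatin assembly at the fork 6 fell and 1 rose, led by the histone chaperone ASF1B (-0.75) and UHRF1 (-0.39), which brings DNMT1 to new DNA. Among 16 E2F, DP and pocket protein genes 7 fell and 4 rose, and the widest moves were in the repressors E2F8 (-0.57) and E2F7 (0.54). Of 14 S phase kinase and checkpoint genes 11 fell and 1 rose, led by CKS1B (-0.93) and SKP2 (-0.65), which act together in the destruction of CDK inhibitors. The 11 CDK inhibitors, D cyclins and their kinases split, 6 higher and 4 lower, with cyclin D1 (3.33) and CDK6 (1.01) widest. Some of these counts of rises changed when a single library was left out. That of the CDK inhibitors, D cyclins and their kinases stayed at 6 to 7. Of 12 fits with a library left out, the count of rises moved by more than 1.5 times, or to 0, in 4 for other replication genes (to 1), 10 for other nucleotide supply genes (to 1), 1 for chromatin assembly (to 0, without baseline replicate 3), 1 for E2F, DP and pocket proteins (to 2, without EZH2i replicate 1) and 4 for S phase kinases and checkpoint genes (to 0).

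With CBPi, 24 of 29 other replication genes fell and 2 rose (median -0.24; 0 rose without CBPi replicate 2 or baseline replicate 1, and the count of rises moved in 5 of 12 such fits), led by RNASEH2A (-0.77), the catalytic subunit of RNase H2, and POLE4 (-0.65). Of 14 other nucleotide supply genes 9 fell and 2 rose, with DTYMK (-0.77) among the falls. All 8 chromatin assembly genes fell, led by UHRF1 (-0.92) and ASF1B (-0.86). Among the 16 E2F, DP and pocket protein genes 6 fell and 3 rose, with E2F8 (-1.02) and the activator E2F2 (-0.92) widest. Of 14 S phase kinase and checkpoint genes 12 fell and 0 rose (also 0 at an unadjusted p under 0.05), led by cyclin A2, CCNA2 (-1.09), and SKP2 (-1.05). Of the 11 CDK inhibitors, D cyclins and their kinases 3 rose and 6 fell, with CCND1 (2.04) and CCND3 (-1.03) widest.

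With FSK, 12 of 29 other replication genes fell and 2 rose (median -0.118), led by TIMELESS (-0.30), the partner of TIPIN, and RPA3 (-0.30). Of 14 other nucleotide supply genes 5 fell and 5 rose, and the widest were DUT (-0.74), which removes dUTP, and ATIC (0.62), which closes the purine ring. Of 8 chromatin assembly genes 6 fell and 1 rose, led by ASF1B (-0.55) and UHRF1 (-0.38). Among the 16 E2F, DP and pocket protein genes 6 fell and 3 rose, with RB1 (-0.78), the retinoblastoma gene, and E2F2 (-0.60) widest. Of 14 S phase kinase and checkpoint genes 10 fell and 0 rose (2 rose at an unadjusted p under 0.05, and 1 passed without FSK replicate 2), led by SKP2 (-0.96) and CCNA2 (-0.89). Of the 11 CDK inhibitors, D cyclins and their kinases 2 rose and 6 fell, with CCND2 (-2.45) and CDKN2C (-1.22) widest.

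A list of 30 mitosis genes was set beside the replication genes. With EZH2i 25 of the 30 fell and 1 rose (median -0.359, beside -0.313 for the replication genes), led by the kinetochore genes NUF2 (-0.76) and SPC25 (-0.75), and the count of rises was 0 to 2 with single libraries left out, differing from 1 in 11 of 12 such fits (0 without EZH2i replicate 1 and 2 without EZH2i replicate 3, for example). With CBPi 29 fell and 0 rose (median -0.716, beside -0.507), led by SPC25 (-1.23) and the kinase AURKA (-1.12). With FSK 29 fell and 0 rose (median -0.52, beside -0.0925), led by the kinesin KIF20A (-1.15) and SPC25 (-0.78). Between EZH2i and FSK, 16 mitosis genes were higher with EZH2i and 3 lower, where 0 replication genes were higher and 30 lower. The counts of 0 rises among mitosis genes with CBPi and FSK were also 0 at an unadjusted p under 0.05. The difference between the lists was not tested.

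**Figure D4:**
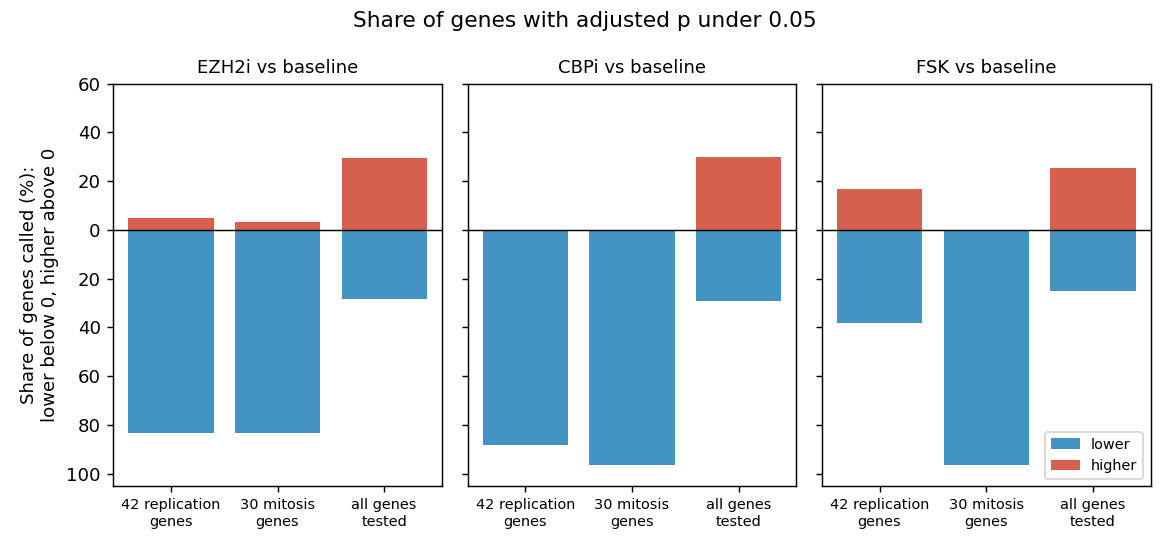
Share of genes (%) with an adjusted p under 0.05 in each comparison with baseline, falls below 0 and rises above 0, for the 42 replication genes, 30 mitosis genes and all 20360 genes tested. Falls outnumber rises in both lists with each agent, and with FSK the share of falls is larger among the mitosis genes than among the replication genes.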

How the data were processed

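Polyadenylated RNA was sequenced in 12 libraries of NCI-H295R cells, 3 biological replicates in each of 4 groups per the labels. The submitters' processing notes name STAR, featureCounts and the build hg38. How strand and multimapping were handled is not given in the sources used here. Expected counts (estimated, not all whole) for 60617 genes were deposited by the authors. Of their non-zero values 65.6% are whole within 1e-06, and 25 of the 42 genes have a fractional value in at least 1 library (tolerance 0.001). The authors' deposited gene length, of another unit, served only for CPM per kilobase.

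After rounding to whole numbers, the fit was made in edgeR 4.0.16 (R 4.3.3): filterByExpr with 4 groups, TMM scaling, 1 robust quasi-likelihood fit of all 12 libraries, and Benjamini-Hochberg adjustment over 20360 genes with a threshold of 0.05. A second test used a fold of 1.5 (glmTreat). CPM are TMM-scaled and computed from unrounded counts. The SE is the log2 fold change divided by the square root of F. P-values measure the spread between cultures of 1 cell line. Libraries were not paired, since the labels give no replicate numbers, and the numbers used here only name them. The pipeline was tested on simulated data. Alternatives were DESeq2 1.42.0, limma 3.58.1 (voom), other scalings and filters, fits of 2 groups, and each library left out. Positions are from GENCODE release 29 (GRCh38), promoters from RefSeq (GRCh38.p14), searched for fixed words.

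All 42 genes may be named. Values per library are given for the 2 largest falls and rises of a comparison with baseline and for genes that passed against the majority. They are also given for most of the 3 largest differences between treatments, and for some others chosen after their values were seen. The highest gene per length of each role is given as mean ± SD at baseline. Related genes come from 7 lists, of which the 2 widest passing changes are named (1 gene that this rule names is not reported here), and cell identity from 5 marker lists. The 42 genes and these lists were chosen with earlier results of these data known.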

Additional observations from a re-analysis of the deposited data

How the results depend on the processing

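Under other scalings, other filters, DESeq2, limma voom and fits of only 2 groups, no log2 fold change of the 42 genes reversed while called. With scaling by library size only, falls among the 42 genes with FSK numbered 26 in place of 16, 1 gene in place of 0 passed the test against 1.5-fold, and 1 gene in place of 0 was higher with EZH2i than with FSK, as was 1 with CBPi. By construction this setting drops the TMM factor, and it moved the median log2 fold change of all genes with FSK to -0.0543, against 0.0146 with TMM. With each of the 12 libraries left out in turn, rises with EZH2i ranged from 0 (without baseline replicate 2) to 2, rises with CBPi from 0 to 1 (without CBPi replicate 3), genes lower with EZH2i than with CBPi from 0 (without EZH2i replicate 1 or CBPi replicate 2) to 2 (without CBPi replicate 1), and genes higher with CBPi than with FSK from 0 to 1 (without CBPi replicate 1). The number of falls ranged from 33 to 35 under EZH2i, from 35 to 38 under CBPi, and from 13 to 18 under FSK. Where a setting changed a call, the cause was not tested. No paired analysis was possible because the libraries carry no replicate numbers in the labels.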

Other observations

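The genes with a promoter window were divided by whether a window held an E2F word. With CBPi the median log2 fold change was -0.487 for the 22 genes with a word and -0.605 for the 14 without. With EZH2i the medians were -0.341 and -0.317, and with FSK -0.111 and -0.101. For the CCAAT word the medians with CBPi were -0.546 for 22 genes with it and -0.54 for 14 without it. With EZH2i they were -0.283 and -0.368, and with FSK -0.049 and -0.119. These are descriptions of letters in short windows, with no test.

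POLE4, POLE3 and POLE2, accessory subunits of DNA polymerase epsilon, had log2 fold changes of -0.85, -0.58 and -0.61 with EZH2i, while the catalytic subunit POLE had 0.14. With FSK the 4 values were 0.02, 0.06, 0.35 and 0.20 in the same order. POLE4 was among the falls with CBPi too, where POLE2 (-0.21) and POLE (0.10) did not pass, and POLE3 is not reported here for CBPi. The 4 subunits were set side by side after their values were seen.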
